A study of Mus musculus with 30 samples.

Results

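The G1 cyclins and their kinases form the switch that takes a resting fibroblast past the restriction point. The set described here was chosen by name: the D-type cyclins Ccnd1, Ccnd2 and Ccnd3, the E-type cyclins Ccne1 and Ccne2, the kinases Cdk2, Cdk4 and Cdk6, the kinase inhibitor Cdkn1b and the retinoblastoma gene Rb1. These are 10 of 36047 annotated genes, and all 10 passed the filter on low counts in every comparison. D-type cyclins are made in response to mitogens and switch on CDK4 and CDK6, which begin to phosphorylate the retinoblastoma protein. E-type cyclins then switch on CDK2, E2F factors are released from the retinoblastoma protein, and the genes of DNA replication are transcribed. CDKN1B (p27) binds these complexes, inhibits CDK2 and is itself sequestered by cyclin D complexes.

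RNA was sequenced from 30 libraries of NIH3T3-CG, a derivative of the mouse embryonic fibroblast line NIH3T3, in 10 groups of 3. In the transduction experiment the cells carried a Prrx1 construct and either received doxycycline (induced) or did not (uninduced). In the other 3 experiments the cells were transfected with Prrx1 or Snai1 and compared with 1 shared control-plasmid group, with Egr1 or Jun and compared with a second shared control-plasmid group, or with Srebf2 and compared with a control-plasmid group of its own. No group of untransduced cells with doxycycline was analysed here, so the drug and the induced factor cannot be told apart, and the time of collection is not given in the sources used here. The labels do not say whether replicates were separate cultures, so p-values measure the spread between libraries, which may be technical. In bulk RNA, fewer cells of a kind and less RNA per cell cannot be told apart.

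Total estimated counts were lowest in the transduction experiment, 7996355 to 17129632 per library, and reached 37068611 among the transfected cells. The lowest count of any of the 10 genes in a library was 167, for Ccne2. Control replicate 1 of the Prrx1 and Snai1 experiment and uninduced replicate 1 stood furthest from their own group, with a chi-square per gene of 24.7 to 29.98 and 23.4 to 39.6 against the other replicates, where pairs without these 2 libraries gave 3.42 to 17.6. The delivered factor rose in each experiment, by 1.95 (induced Prrx1), 4.78 (transfected Prrx1), 6.94 (Snai1), 3.25 (Egr1), 4.47 (Jun) and 2.07 (Srebf2) on the log2 scale, with edgeR adjusted p of 0.000394 or lower. Of 12 fibroblast markers, 11 had a mean of at least 1 TPM, the deposited abundance per transcript length, and their sum was 9560 to 15402 TPM in every library. Of the markers of other cell types, those with a mean of at least 1 TPM were 3 of 6 epithelial (Epcam, Krt8, Krt18), 2 of 5 endothelial (Pecam1, Cdh5), 1 of 6 immune (Cd68), 3 of 6 neural (Snap25, Tubb3, Gfap), 1 of 5 muscle (Des) and 1 of 5 adipocyte (Fabp4), and none was at 0 in all libraries.

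Levels below are CPM, counts scaled to library size and composition over all libraries, and they compare 1 gene between groups. Differences are log2 fold changes ± standard error from edgeR's quasi-likelihood test, called at a Benjamini-Hochberg adjusted p under 0.05 over all genes tested. Among 60 tests of the 10 genes in 6 comparisons of a factor with its control, 4 were called. Of all genes tested, between 0.325% (Egr1) and 17.2% (Srebf2) were called in a comparison. The 4 were Ccnd1 and Cdk6 (higher) and Ccne1 (lower) after induction of Prrx1, and Rb1 (higher) after transfection of Srebf2.

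**Figure D1:**
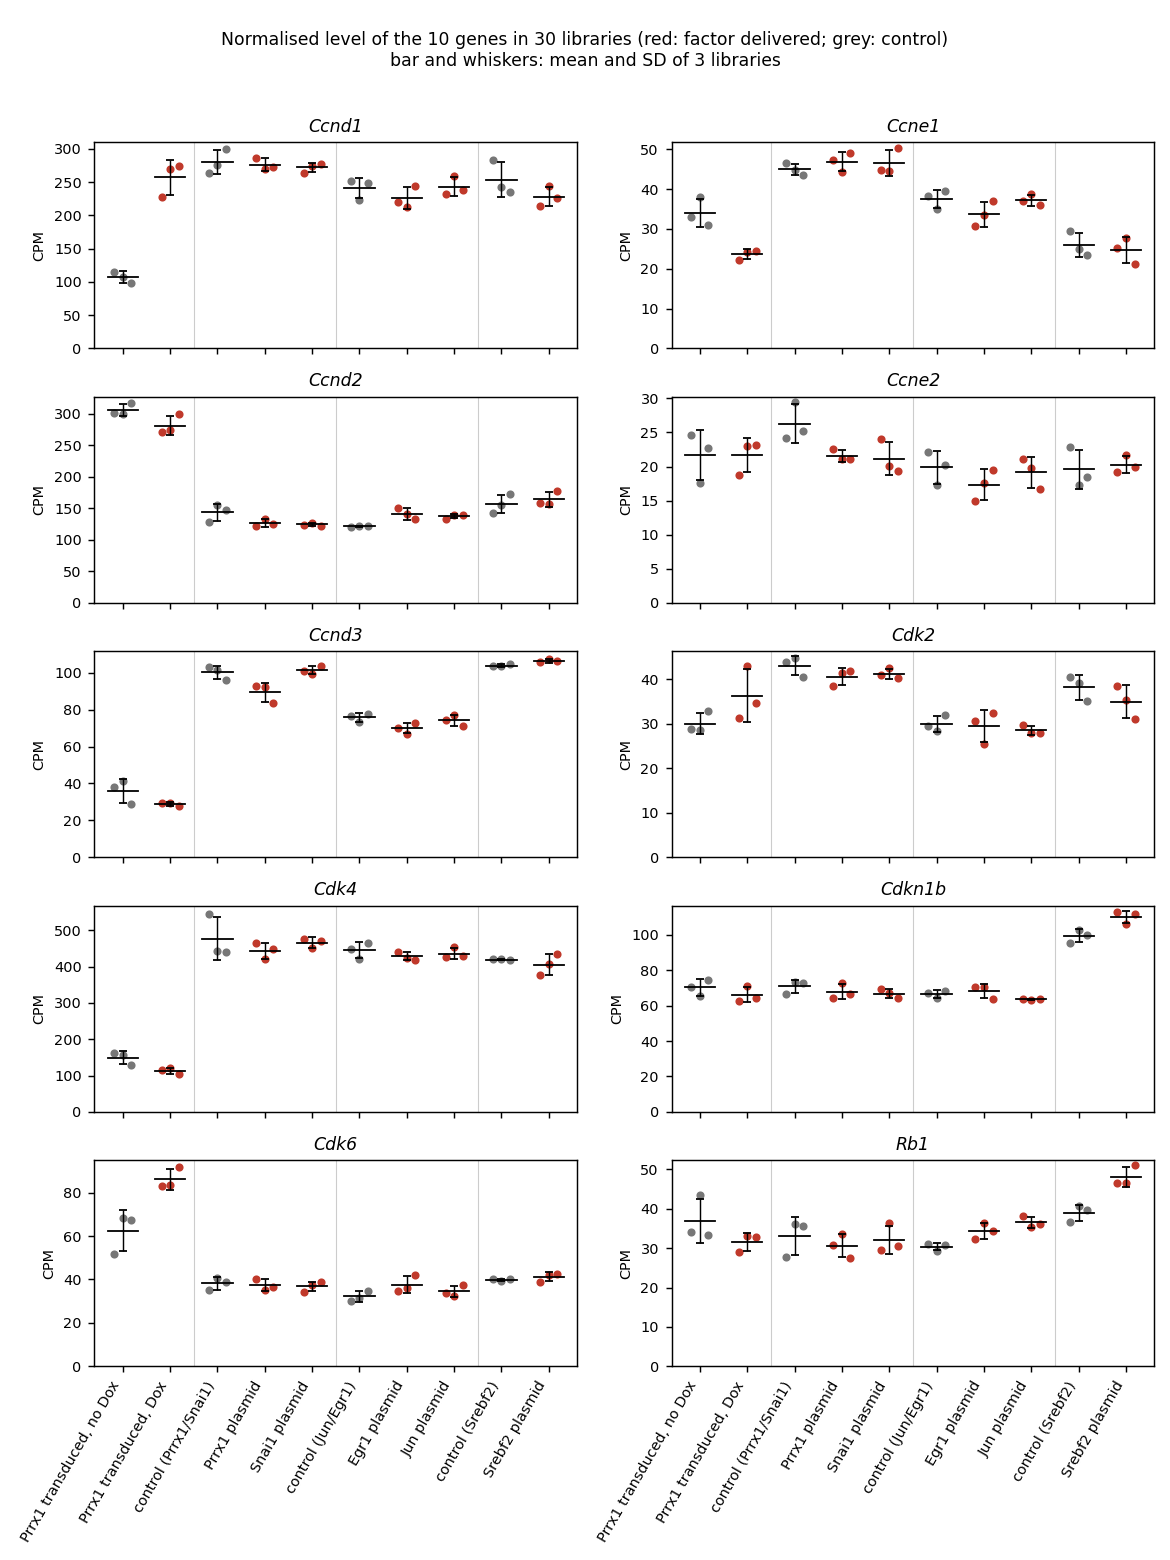
Normalised level of each gene (CPM, y axis, from 0) in the 3 libraries of each of 10 groups (points), with the group mean and SD (bar and whiskers); grey lines separate the 4 experiments. Ccnd1 was low in the 3 uninduced transduced libraries alone, at 97.6 to 115 CPM, while the Cdk4 and Ccnd3 panels show both transduced groups below all transfected ones.

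Ccnd1 encodes cyclin D1, the D-type cyclin most closely tied to growth factor signalling in fibroblasts. It lies on the minus strand at chr7:144929931-144939925 (mm10). In the 3 uninduced libraries it was at 115, 108 and 97.6 CPM, and in the 3 induced libraries at 227, 270 and 274 CPM. Every induced library lay above every uninduced one. The difference was 1.32 ± 0.0887 (2.49-fold higher, adjusted p = 7.22e-06, edgeR), which ranked 16 of 13632 genes tested. Of the 10 genes, 3 were called between induced and uninduced cells, where 6.19% of all genes tested were called. Of the 3, 2 were higher and 1 lower, where 3.46% and 2.74% of all genes were. The Ccnd1 call held without each of the 6 libraries in turn, where the difference was between 1.26 and 1.38. Ccnd1 shares 22.3% of its 31-base words with the overlapping gene LTO1, so its reads are not all its own. LTO1 held counts equal to 5.42% of those of Ccnd1.

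In the 8 groups of transfected cells the mean of Ccnd1 lay between 226 and 280 CPM. No factor moved it there past the test. The difference was 0.01 ± 0.0596 for transfected Prrx1, with a 95% interval of −0.12 to 0.14, while the transfected cells held 14599 to 19455 CPM of Prrx1 and the induced cells 3150 to 3714. The induced effect exceeded the transfected one by 1.30 ± 0.122 (adjusted p = 1.02e-05, edgeR interaction term), and 4% of all genes differed in this way (16.8% at an unadjusted p under 0.05, and 4 of the 10). Its starting level also differed, since the uninduced libraries lay below all 9 control-plasmid libraries (223 to 299.5 CPM) and the induced ones lay within their range. Experiment, delivery and dose of Prrx1 cannot be told apart in this difference.

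In the order of group means for Ccnd1, each of the 9 groups from the Prrx1 and Snai1 control (280 ± 18.3 CPM, SD, n = 3) down to Egr1 (226 ± 16.5) overlapped the next one. Only the uninduced group (107 ± 8.80) stood below without overlap. With Srebf2 it was at 215, 244 and 226 in the transfected cells and 283, 242 and 235 CPM in their controls, which overlap. That difference was −0.16 ± 0.0673 and did not pass (adjusted p = 0.121, edgeR).

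Ccnd2 encodes cyclin D2, which pairs with the same kinases. It was at 301, 299 and 317 CPM in the uninduced and 271, 274 and 299 CPM in the induced libraries, and the groups overlapped (−0.07 ± 0.0743, adjusted p = 0.682, edgeR). Both were above every transfected library, of which the highest had 178 CPM. Among the transfected cells Ccnd2 had small differences of opposite sign. It was at 151, 140 and 132 CPM with Egr1 and 133, 139 and 139.7 with Jun, all above their shared controls at 120.2, 122 and 122. The differences were 0.22 ± 0.0471 (Egr1, adjusted p = 0.0879) and 0.16 ± 0.0473 (Jun, adjusted p = 0.136), and neither passed in edgeR. Egr1 passed in DESeq2 (adjusted p = 0.00633) and in edgeR without Egr1 replicate 3 (0.0275). With Snai1 it was at 124, 127 and 122 CPM, below all 3 controls at 129, 155 and 147, and the difference of −0.19 ± 0.0713 did not pass (adjusted p = 0.204, edgeR). Without control replicate 1 it passed for both Prrx1 (−0.22, edgeR adjusted p = 0.00472) and Snai1 (−0.26, 0.00118). These 2 comparisons share their controls, so control replicate 1 bears on both.

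Ccnd3 encodes cyclin D3. Its means formed 3 levels: 28.8 and 36.01 CPM in the transduced cells, 70.02 to 75.9 in the Egr1 and Jun experiment, and 89.5 to 106 in the other 2. Within experiments no call was made. With Prrx1 plasmid it was at 92.9, 92.1 and 83.6 CPM, below all 3 controls at 103, 102 and 96.2, with a difference of −0.13 ± 0.0639 (adjusted p = 0.317, edgeR). In the induced libraries it was at 29.4, 29.4 and 27.6 CPM against 38.1, 41.1 and 28.8, which overlap (−0.27 ± 0.139, adjusted p = 0.336, edgeR). With Egr1 it was at 70.2, 67.0 and 72.8 CPM, below its controls at 76.8, 73.2 and 77.6, with a difference of −0.12 ± 0.0473 (adjusted p = 0.400, edgeR). With Srebf2 it was at 106, 107.5 and 106 CPM, above its controls at 103, 104 and 105, a difference of 0.03 ± 0.0507.

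Set side by side per length, the 3 D-type cyclins made a different mix in the uninduced cells. Ccnd1 was 28.8% ± 1.35 (SD, n = 3) of their summed TPM there and 51.6% ± 1.90 after induction, where the 24 transfected libraries held 39.3 to 52.3%. Ccnd2 was 49.1% ± 3.48 uninduced and 32.6% ± 2.26 induced, against 12.6 to 22.1% in transfected cells. Ccnd3 made up the rest, with 22.1% ± 2.30 and 15.8% ± 0.381. All 3 shares were apart between induced and uninduced libraries, with p = 0.1 in a two-sided exact permutation test, the smallest that 3 against 3 can give (0.5625 after adjustment over 90 shares compared). The 3 shares are parts of 1 sum, so they are not separate results. By TPM, Ccnd1 was at 47.9 uninduced and 124 induced, Ccnd2 at 81.5 and 78.4, and Ccnd3 at 36.7 and 38.0. The lower shares of Ccnd2 and Ccnd3 thus mostly reflect the rise of Ccnd1. As shares of estimated counts in place of TPM, the Ccnd3 difference was −2.92 in place of −6.27 percentage points.

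**Figure D2:**
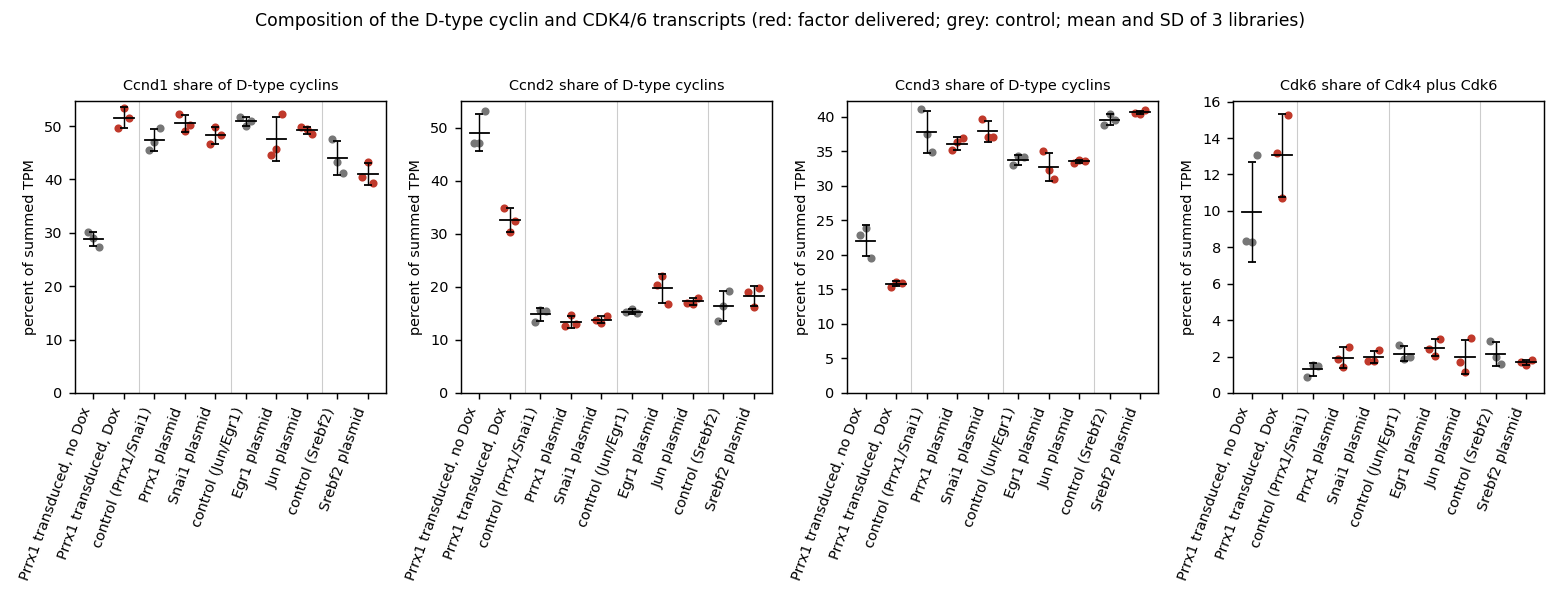
Share of each D-type cyclin in the summed TPM of the 3 (first 3 panels) and of Cdk6 in the sum of Cdk4 and Cdk6 (last panel), in percent from 0, for 3 libraries per group (points) with mean and SD. Induced cells reached a Ccnd1 share of 51.6%, within the range of the transfected libraries, while Ccnd2 stayed above all of these and Ccnd3 below.

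Cdk4 and Cdk6 encode the partner kinases of the D-type cyclins. Summed over all its transcripts, Cdk4 had the highest TPM of the 10 genes in every group, from 164 in the induced to 598 in the Jun cells. In the induced libraries its coding transcript Cdk4-201 alone was at 58.3, 47.0 and 36.4 TPM, below Ccnd1 at 115, 133 and 125. After induction the CPM of Cdk4 was 114, 120 and 103, below all 3 uninduced libraries at 162, 158 and 128. The difference of −0.35 ± 0.103 did not pass in edgeR (adjusted p = 0.0716). It passed with DESeq2 (0.0322) and without uninduced replicate 3 (−0.45, adjusted p = 0.0361). In the 5 transfection comparisons its differences lay between −0.07 and −0.01, and none passed in edgeR. With Srebf2, Cdk4 passed in opposite directions in edgeR on protein-coding transcripts alone (−0.17) and in limma on log2(TPM + 1) (0.22). Cdk4 shares 18.1% of its 31-base words with its neighbour Tspan31.

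Cdk6 moved the other way in the same cells. It was at 51.8, 68.4 and 67.4 CPM uninduced and 83.1, 83.6 and 91.7 CPM induced, with no overlap. It rose by 0.52 ± 0.116 (1.43-fold, adjusted p = 0.0225, edgeR). The call was lost without induced replicate 1 (0.0859), 2 (0.0808) or 3 (0.129), while the size stayed between 0.39 and 0.59 in all 6 such fits. With limma on log2(TPM + 1) it was 0.30 (adjusted p = 0.603). In transfected cells Cdk6 was at 30.3 to 42.7 CPM in all libraries. Egr1 had the largest difference there, 0.22 ± 0.0846 (adjusted p = 0.379, edgeR), with values that overlap the controls. The induced and transfected Prrx1 effects on Cdk6 differed by 0.52 ± 0.154, which did not pass (adjusted p = 0.0752, edgeR), but did without uninduced replicate 2 (0.0344) or control replicate 1 (0.0336). It also passed with DESeq2 (0.0471), with no filter (0.0280) and with all 30 libraries (0.0114), and it was −0.20 with limma on log2(TPM + 1) (adjusted p = 0.852).

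Per length, Cdk6 was the minor kinase everywhere. Its share of the summed TPM of Cdk4 and Cdk6 was 8.30 to 15.3% in the 6 transduced and 0.899 to 3.03% in the 24 transfected libraries. Induced and uninduced libraries overlapped in this share (13.04% ± 2.29 and 9.91% ± 2.75), with p = 0.2 in the exact permutation test. As shares of estimated counts, the difference was 13.7 in place of 3.13 percentage points. A transcript of 425 bases, Cdk6-205, carried 17.5 to 63.8% of the TPM of Cdk6. The full-length Cdk6-202 (11525 bases) carried 93.9% of its counts.

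Ccne1 and Ccne2 encode the E-type cyclins, the activators of CDK2 at the start of S phase. Ccne1 was at 33.0, 37.9 and 31.03 CPM uninduced and 22.2, 24.3 and 24.4 CPM induced, and the groups were apart. It fell by 0.47 ± 0.119 on the log2 scale (adjusted p = 0.0399, edgeR). The call was lost without each of the 6 libraries in turn (adjusted p between 0.0514 and 0.165, differences of −0.53 to −0.38). It was also lost with scaling by total counts (0.0587). With transfected Prrx1 Ccne1 was at 47.4, 44.3 and 49.0 CPM against 46.5, 44.7 and 43.6, a difference of 0.09 ± 0.0738. The induced effect was lower than the transfected one by −0.57 ± 0.139 (adjusted p = 0.0301, edgeR). That call was lost without any 1 induced or Prrx1-plasmid library, and without control replicate 2 or 3 (0.0519 to 0.0905).

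Ccne1 also differed in level between experiments, which was not tested. Its lowest group means were in the induced cells (23.6 ± 1.27 CPM), the Srebf2 cells (24.7 ± 3.34) and the Srebf2 controls (26.0 ± 3.13), which overlap. The 3 groups of the Prrx1 and Snai1 experiment were highest, at 44.9 to 46.9 CPM.

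The promoter sequences of the 2 called genes for which RefSeq (GRCm38.p6) gave an entry, Ccne1 and Cdk6, are shown for the motifs they hold. Each runs 5′ to 3′ from 250 bases before to 50 after the transcription start, on the minus strand at chr7:38107441-38107740 for Ccne1 and on the plus strand at chr5:3343643-3343942 for Cdk6. Capitals mark GGGCGG, the core of a GC box, on either strand:
Ccne1: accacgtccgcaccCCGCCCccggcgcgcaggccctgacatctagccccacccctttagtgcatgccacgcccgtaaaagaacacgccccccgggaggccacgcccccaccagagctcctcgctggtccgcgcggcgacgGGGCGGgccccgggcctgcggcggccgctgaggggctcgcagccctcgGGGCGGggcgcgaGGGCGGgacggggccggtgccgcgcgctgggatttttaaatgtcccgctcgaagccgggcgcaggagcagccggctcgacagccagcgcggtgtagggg
Cdk6: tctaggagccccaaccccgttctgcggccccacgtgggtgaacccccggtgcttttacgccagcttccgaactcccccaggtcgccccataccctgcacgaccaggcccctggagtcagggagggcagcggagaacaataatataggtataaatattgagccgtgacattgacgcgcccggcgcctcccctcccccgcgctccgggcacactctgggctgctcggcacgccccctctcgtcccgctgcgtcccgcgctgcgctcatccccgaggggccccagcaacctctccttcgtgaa
The Ccne1 window is 76.0% G and C and holds GGGCGG at 4 places, where 35.7% of 32851 promoters hold it at least once. The Cdk6 window is 66.7% G and C and has no match to any motif searched on both strands, which were E2F (TTTCCCGC, TTTGGCGC), AP-1 (TGANTCA), CRE (TGACGTCA), Egr1 (GCGTGGGCG, GCGGGGGCG), a sterol element (TCACNCCAC), the Snail E-box (CAGGTG), a homeodomain core (TAATTA) and GGGCGG. Ccne1 matched GGGCGG alone. Of the 6 genes of the set with an entry, only Cdk2 had an E2F match, TTTCCCGC on the minus strand, held by 1.07% of all promoters. A match of letters is a description and shows no binding.

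Ccne2 was at 14.97 to 29.5 CPM over the 30 libraries. With Snai1 it was at 24.0, 20.2 and 19.4 CPM, below all 3 controls at 24.2, 29.5 and 25.2, and with Prrx1 plasmid at 22.6, 21.1 and 21.1. Neither difference passed (−0.29 ± 0.103, adjusted p = 0.171, and −0.25 ± 0.102, adjusted p = 0.223, edgeR). Both passed without control replicate 1 (0.0160 and 0.0333). In the induced and uninduced cells Ccne2 overlapped (0.05 ± 0.147). Its share of the summed TPM of the 2 E-type cyclins was 46.4% ± 0.858 induced and 36.2% ± 7.38 uninduced (SD, n = 3), which are apart (exact permutation p = 0.1). Ccne2 shares 15.6% of its 31-base words with Ints8, which held counts equal to 269% of those of Ccne2.

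Cdk2 encodes the kinase of the E-type cyclins. It was at 28.8, 28.6 and 32.7 CPM uninduced and 31.4, 43.0 and 34.6 induced, and the groups overlapped (0.32 ± 0.130, adjusted p = 0.197, edgeR). In all 5 transfection comparisons its difference lay between −0.14 and −0.03 with no call.

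Cdkn1b and Rb1 are the brakes of the set. Cdkn1b had no call in edgeR in any comparison, while limma on log2(TPM + 1) called it with Egr1 (0.20, adjusted p = 0.0393), where edgeR had 0.03 ± 0.0456. Its mean lay between 63.7 and 71.1 CPM in 8 groups and was higher in both groups of the Srebf2 experiment. There it was at 95.6, 103 and 100.3 CPM in the controls and 113, 106 and 112 with Srebf2. These are apart, with a difference of 0.14 ± 0.0547 that did not pass (adjusted p = 0.0895, edgeR). With Jun it was at 63.7, 63.5 and 63.7 CPM, below its controls at 67.2, 64.4 and 68.4, with a difference of −0.09 ± 0.0461 (adjusted p = 0.382, edgeR).

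Rb1 was the 1 gene of the set called with Srebf2, where 17.2% of all genes tested were called, 8.4% higher and 8.84% lower. It was at 36.6, 40.7 and 39.6 CPM in the controls and 46.6, 46.5 and 51.1 CPM with Srebf2, with no overlap. The rise was 0.30 ± 0.0673 (1.23-fold, adjusted p = 0.00631, edgeR), and the call held without each of the 6 libraries in turn. It was lost when all 30 libraries were fitted together in edgeR (adjusted p = 0.0857, difference 0.30). Rb1 was also above all 3 controls with Egr1 (0.18 ± 0.0601, adjusted p = 0.313) and Jun (0.24 ± 0.0603, adjusted p = 0.0766), without passing in edgeR. Jun passed in DESeq2 (0.0429). Rb1 shares 7.23% of its 31-base words with Rcbtb2 and 5.93% with Lpar6, a gene that lies in a Rb1 intron. After induction of Prrx1 it was at 28.9, 33.0 and 32.9 CPM against 34.2, 43.4 and 33.2, and the difference of −0.17 ± 0.128 did not pass (adjusted p = 0.534, edgeR).

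**Figure D3:**
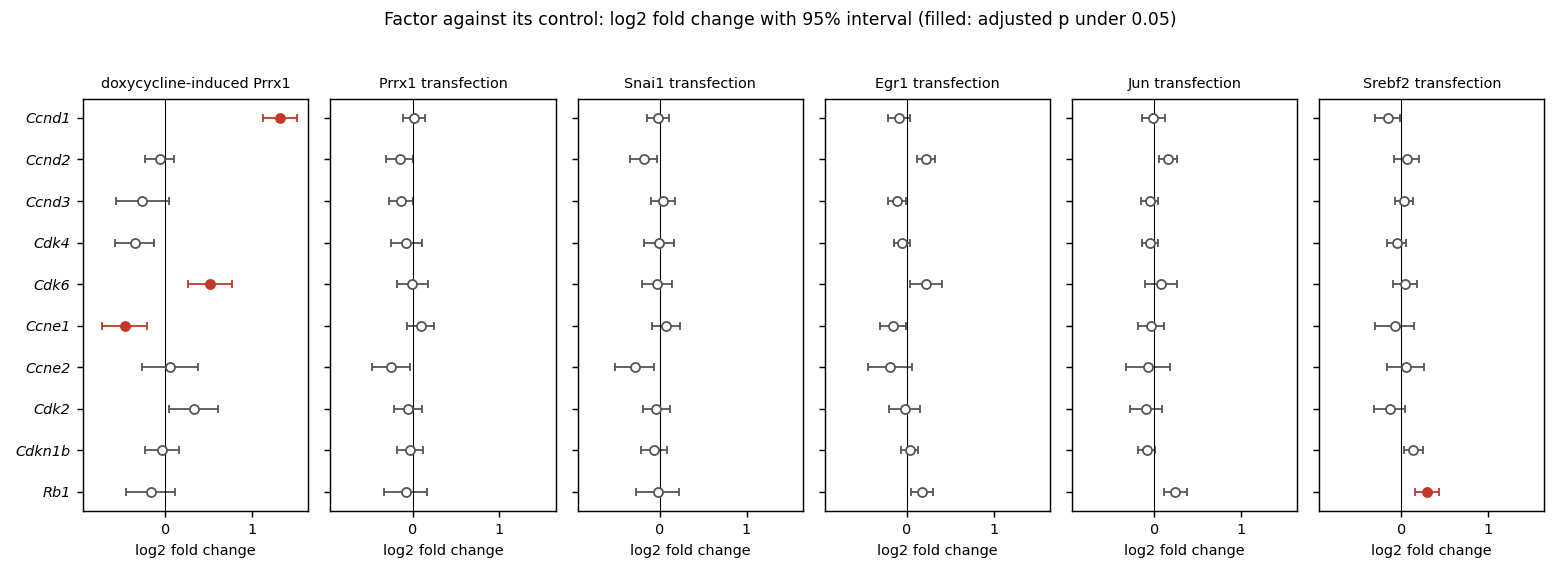
Log2 fold change (x axis) of each gene against its control in 6 comparisons, with the 95% interval; filled symbols have an edgeR adjusted p under 0.05. Ccnd1 stands at 1.32 after induction of Prrx1, and every symbol outside that panel lies between −0.29 and 0.30.

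No gene of the set was called with transfected Prrx1 (2.98% of all genes called), Snai1 (1.62%), Egr1 (0.325%) or Jun (0.967%). After induction 5 of the 10 and with Srebf2 3 of the 10 had an unadjusted p under 0.05 in edgeR, where 18.5% and 31% of all genes did. In the 4 comparisons without a call, 1, 2, 5 and 2 of the 10 did so, where 17.2%, 16.3%, 10.3% and 15.3% of all genes did. DESeq2 called 0, 0, 1 and 1. The groups were apart for 2, 2, 3 and 3 of the 10 genes, against 20.2%, 21.1%, 14.4% and 21.6% of all genes. After induction they were apart for 5 of the 10, against 25.7%, and with Srebf2 for 3 of the 10, against 34.9%. The set's median was −0.05 after induction (−0.01 over all genes tested) and 0.04 with Srebf2 (0.00 over all genes). In the direct contrasts of Snai1 with Prrx1 (0.252% of all genes called) and of Jun with Egr1 (0.449%), 0 of the 10 were called in edgeR and in DESeq2, and 1 in each had an unadjusted p under 0.05, where 5.47% and 11.9% of all genes did. These were Ccnd3 (0.17 ± 0.0640) and Cdkn1b (−0.12 ± 0.0459).

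The uninduced transduced cells also differed in baseline from the control-plasmid cells. Their 3 libraries lay outside the range of the 9 control libraries for 5 of the 10 genes, where 64.7% of all genes with a mean of at least 5 CPM did so, 21.4% above and 43.3% below. The share for the set was thus no higher than for genes at large. Ccnd2 (2.17-fold) and Cdk6 (1.70-fold) were higher in the uninduced cells. Cdk4, Ccnd3 and Ccnd1 were lower, with the controls 2.99-fold, 2.59-fold and 2.42-fold above them. These values are across experiments and were not tested, because experiment and delivery cannot be told apart.

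The transduction and transfection libraries also differed in the deposited levels of single transcripts of Cdk2, Cdkn1b, Cdk4 and Ccnd3. The transcripts named here were picked, and the share of all transcripts that differ in this way was not computed. By gene level, 64.7% of genes had the uninduced libraries outside the range of the control-plasmid libraries. The share of the transcript with the highest TPM of its gene overlapped between transduced and transfected libraries for Ccnd1, Ccnd2, Ccne1, Ccne2, Cdk4, Cdk6 and Rb1. For Cdk2, the short form Cdk2-201 was at 0 to 1.198 TPM in the 6 transduced libraries, and at 0 in 3 of them, but at 4.62 to 12.02 TPM in the 24 transfected ones. The long form Cdk2-202 carried 72.3 to 78.3% of the TPM of Cdk2 in transduced and 24.4 to 47.3% in transfected libraries. The coding parts of the 2 forms differ by exon 6 of 8, which is 144 bases long (a whole number of codons) at chr10:128699976-128700119 on the minus strand, in GENCODE M21. It is shown because the choice between the forms turns on it, and of 7 annotated Cdk2 transcripts only Cdk2-202 holds it:
Cdk2-202 exon 6: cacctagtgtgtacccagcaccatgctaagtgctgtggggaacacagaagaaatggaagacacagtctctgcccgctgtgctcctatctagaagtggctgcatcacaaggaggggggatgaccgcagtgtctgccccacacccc
Within each experiment the Cdk2-202 shares of treated and control groups overlapped.

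For Cdkn1b, Cdkn1b-201 carried 0 to 12.1% of the gene's TPM in transduced and 43.8 to 78.7% in transfected libraries. The longest form, Cdkn1b-202, was at 15.8 to 20.4 TPM in the former and 5.85 to 16.3 TPM in the latter. The third form, Cdkn1b-203, carried 41.1 to 56.2% of the gene's TPM in transduced and 0 to 35.9% in transfected libraries. With Srebf2 the share of Cdkn1b-201 was 12.98 percentage points below the 73.0% ± 3.47 (SD, n = 3) of its controls, and the groups were apart. The exact permutation p was 0.1, the smallest possible, and 0.5625 after adjustment over 90 shares, so it did not pass.

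For Cdk4, the short transcript Cdk4-208, annotated for nonsense-mediated decay, was at 0 to 2.05 TPM in transduced and 45.2 to 136 TPM in transfected libraries. The retained-intron transcript Cdk4-209 was at 0 to 3.39 and 81.6 to 207 TPM. The coding Cdk4-201 was at 36.4 to 91.5 TPM and 157 to 261 TPM. With Srebf2, Cdk4-201 carried 30.9% ± 2.41 of the gene's TPM against 41.3% ± 1.83 in the controls, and these groups were apart. This did not pass either (exact permutation p = 0.1, and 0.5625 after adjustment over 90 shares). In the same comparison Cdk4 was −0.05 ± 0.0528 by counts in edgeR, without a call. It was 0.22 by limma on log2(TPM + 1), with an adjusted p of 0.0442, and −0.17 in edgeR on protein-coding transcripts alone, with an adjusted p of 0.0486, so the calls had opposite directions. For Ccnd3, the 931-base Ccnd3-208 carried 9.02 to 55.1% of the TPM in transduced and 0 to 6.02% in transfected libraries. These splits are estimates for transcripts that overlap, and the read layout is not given in the sources used here. The part of library preparation in them was not tested.

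**Figure D4:**
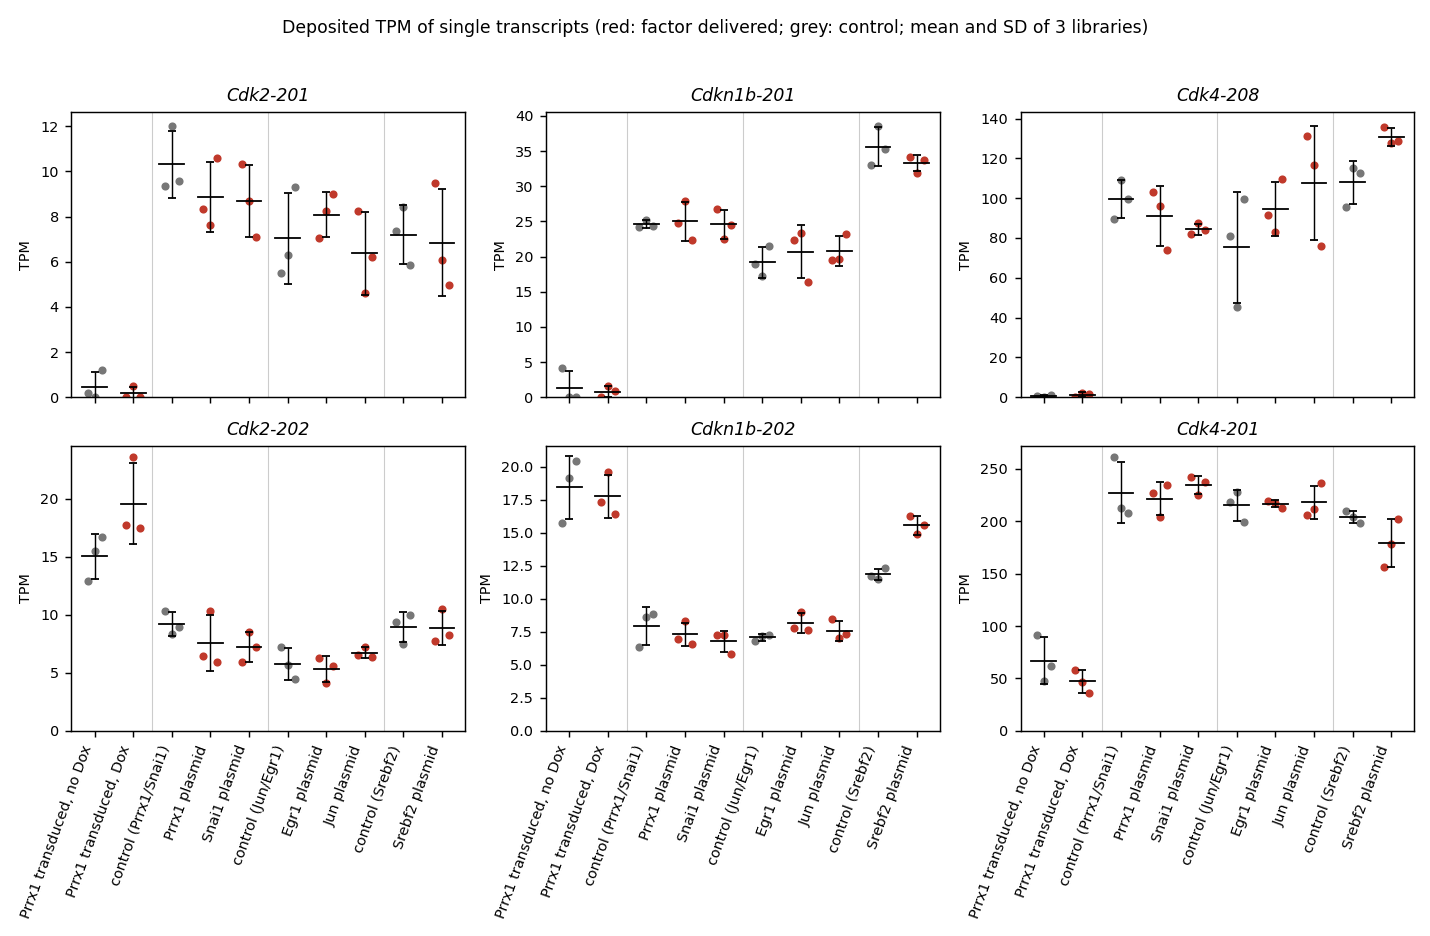
Deposited TPM (y axis, from 0) of 2 picked transcripts each of Cdk2, Cdkn1b and Cdk4 in the 3 libraries of each group (points), with mean and SD. Cdk2-201, Cdkn1b-201 and Cdk4-208 are at most 1.198, 4.09 and 2.05 TPM in the 6 transduced libraries and at least 4.62, 16.4 and 45.2 TPM in all 24 transfected ones.

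Genes around the set were taken from 6 lists. Of the 20 transcriptional inputs to the D-type cyclins and Cdkn1b, 19 were tested after induction of Prrx1, of which 2 rose and 1 fell, where 3.46% and 2.74% of all genes did (median 0.08, over all genes −0.01). Gli2, a transcriptional effector of Hedgehog signalling, rose by 1.48 ± 0.138 (adjusted p = 5.88e-05, edgeR), Tcf7l2, a partner of beta-catenin, rose by 0.42, and Fosl2, an AP-1 subunit, fell by 0.35. Fosl1, another AP-1 subunit, was the 1 called member with Egr1 (−0.41 ± 0.0570) and with Jun (−0.36 ± 0.0571). Both comparisons use the same controls, and Fosl1 has 45.5% of its 31-base words to itself. Myc was −0.80 after induction (adjusted p = 0.169, edgeR) and fell by 0.31 with transfected Prrx1, as the only called member. With Srebf2 only Tcf7l1 passed (0.25). With Snai1 none of the 19 did (1 at an unadjusted p under 0.05, where 16.3% of all genes reached this).

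Among 11 tested pocket proteins and E2F factors, Rbl2, which encodes the Rb relative p130, rose after induction (0.40 ± 0.103) and with Srebf2 (0.24 ± 0.0674). Rbl1, which encodes p107, rose with Srebf2 as well (0.29 ± 0.0685). With Srebf2 2 of the 11 thus rose and none fell, where 8.4% of all genes rose and 8.84% fell. After induction 1 of the 11 rose, where 3.46% of all genes did. The other 4 comparisons had no call among the 11 (2 at an unadjusted p under 0.05 with Prrx1, 2 with Snai1, 0 with Egr1, 1 with Jun). Of 6 other CDK inhibitors 3 were tested, and Cdkn1a (p21) fell by 0.27 with Srebf2, the only call in the list (1, 2, 2, 0 and 2 at an unadjusted p under 0.05 in the induced, Prrx1, Snai1, Egr1 and Jun comparisons). Of 20 genes for turnover and activation of cyclins and CDKs, 3 rose with Srebf2 (Cks2 0.32, Skp1a 0.21, Cul1 0.17) and 2 fell (Cdc37 −0.18, Rnf123 −0.23), where 8.4% of all genes rose and 8.84% fell. The other 5 comparisons had no call (1, 3, 5, 3 and 1 at an unadjusted p under 0.05, in the same order). Over all genes 18.5%, 17.2%, 16.3%, 10.3% and 15.3% reached this unadjusted p in these 5 comparisons.

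After induction, none of 26 tested E2F target genes of S phase entry was called in edgeR (2 higher at an unadjusted p under 0.05), and their median was 0.12. None of 25 G2 and mitosis genes was called either (5 lower at an unadjusted p under 0.05, median −0.08). Over all genes tested after induction, 18.5% had an unadjusted p under 0.05. Ube2c, a ubiquitin-conjugating enzyme of mitosis, had the lowest value of the latter list (−0.66), without a call. With Srebf2, 17 of the 25 G2 and mitosis genes rose and none fell, where 17.2% of all genes were called and 8.4% rose. Their median was 0.26, with Hmmr at 0.41 ± 0.0593, Cenpf at 0.36 ± 0.0532, Nusap1 at 0.38 ± 0.0612 and Kif11 at 0.40 ± 0.0643. Of the 26 E2F targets 5 rose there, including Ccna2 (0.39 ± 0.0629, 88% of its 31-base words its own), Rrm1 (0.33), Pola1 (0.27) and Mcm6 (0.21), and none fell (median 0.02). Ube2c was the only called gene of both lists with transfected Prrx1 (−0.49 ± 0.0648) and Snai1 (−0.31 ± 0.0645). Ube2c has 75% of its 31-base words to itself. Egr1 and Jun had no call in either list, with 6 and 0 E2F targets and 2 and 2 G2 and mitosis genes at an unadjusted p under 0.05. Over all genes 10.3% and 15.3% reached this. With Egr1 the 26 E2F targets lay between −0.28 (Cdc6) and −0.04 (Cdt1), with a median of −0.12 (−0.01 over all genes). With Jun their median was −0.04. The medians of the G2 and mitosis genes were −0.08 with Egr1 and 0.04 with Jun.

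The genes whose level followed Ccnd1 most closely were ranked by Pearson's r of log2 CPM, after subtraction of each experiment's mean, over 30 libraries and 10443 genes. The first 5 were Man1a (0.94), Map4k3 (0.94), Cck (0.94), Lima1 (0.93) and Aldh1a7 (0.93). They were chosen for this value, so it carries no test. Within the 6 transduction libraries r was 0.98 to 0.99 for all 5, since the induced and uninduced groups lie apart, and each of the 5 but Lima1 had a negative r in 1 of the other experiments.

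Markers of other cell types were set beside these results. After induction the 1 tested adipocyte marker, Fabp4, rose by 2.58 ± 0.673 (adjusted p = 0.0449, edgeR) on 12 to 21 counts against 1 to 5, with the 5 adipocyte markers summing to 2.49 to 2.96 TPM induced, 0.916 to 1.53 uninduced and up to 12.6 in transfected libraries, and with the mean of Adipoq and Plin1 under 1 TPM. Among the fibroblast markers Pdgfrb (0.79) and Col5a1 (0.61) rose and Col3a1 fell by 0.95. With Srebf2 Lox (0.35) and Pdgfra (0.22) rose, and with Jun Fn1 (0.31). The endothelial markers summed to 11.5 to 17.0 TPM in the transduced and 0.986 to 4.75 TPM in the transfected libraries. The epithelial markers summed to at most 1.11 TPM in the transduced libraries and 190 TPM in 1 Egr1 library. Immune, neural and muscle markers summed to 10.9, 46.6 and 12.3 TPM or less in every library, and of their genes only Rbfox3 was called, with Prrx1 plasmid (11 to 16 counts, and 0 in each control library, which allows up to 3). Their part in the changes of the G1 genes was not tested.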

How the data were processed

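RNA from 30 libraries of NIH3T3-CG cells (10 groups of 3) was analysed. Per the submitters' processing notes the authors used kallisto 0.43.0 with mm10, and they deposited estimated counts and TPM per transcript for each library. The annotation release, read layout and strand setting are not given in the sources used here. Of 118491 targets, 116816 matched GENCODE M21 by identifier, 1673 did not, and 2 were added sequences. Deposited estimated counts were summed per gene and rounded to whole numbers, and deposited TPM were summed per gene without change. Estimated counts of 7996355 to 37068611 per library limit the precision of low genes.

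Each experiment was fitted alone, with groups that share controls fitted together, and both Prrx1 experiments together for the difference of their effects. Genes were kept by filterByExpr (minimum count 10, minimum total 15), scaled by TMM and tested with the quasi-likelihood test of edgeR 4.0.16 in R 4.3.3 (two-sided, Benjamini-Hochberg adjustment, called at 0.05). Shares were compared by exact permutation. Alternatives were DESeq2 1.42.0, total-count scaling, no filter, at least 5 CPM in 3 libraries, the replicate number as a block, all 30 libraries in 1 fit, protein-coding transcripts only, limma 3.58.1 on log2(TPM + 1) and log2(TPM + 0.1) for genes with a mean of at least 1 TPM, shares of estimated counts, and leaving out each library. The edgeR code was tested on simulated data: of genes changed 1.5-fold, 43.3% were recovered in the simulated induction comparison (13538 genes) and 80.6% in the simulated Srebf2 comparison (12712 genes). In each simulation 67 genes were changed 1.5-fold, 67 were changed 2-fold and 66 were changed 4-fold. Genes left unchanged were called 9 times in the simulated induction comparison and 25 times in the simulated Srebf2 comparison, the most of all comparisons.

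The 10 genes and the surrounding lists were chosen with earlier results of these data known. Named were all 10 in every comparison, up to 4 called genes per list by smallest adjusted p, the delivered factor and the 5 genes most like Ccnd1. Rnf123, and Ube2c and Myc after induction, were named after their values were seen. The single transcripts compared between transduced and transfected libraries were picked outside these rules. Promoters came from RefSeq (GRCm38.p6), which had entries for 6 of the 10 genes. The share of 31-base words that no other gene holds was counted over GENCODE M21 transcripts.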

Additional observations from a re-analysis of the deposited data

Results flagged for a closer look

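Induced and transfected Prrx1 had different effects on 2 of the 10 genes, by the edgeR interaction term fitted over both experiments. Of all 15216 genes tested, 4% were called by this term. For Ccnd1 the induced effect was 1.30 ± 0.122 above the transfected one on the log2 scale (adjusted p = 1.02e-05). All 3 induced libraries were above all 3 uninduced ones, and the difference was called without each of the 12 libraries in turn, between 1.24 and 1.37. For Ccne1 the induced effect was −0.57 ± 0.139 relative to the transfected one (adjusted p = 0.0301), with all 3 induced libraries below all 3 uninduced ones and the transfected group overlapping its control. Without single libraries the Ccne1 call was lost in 8 of 12 fits, with adjusted p from 0.0519 to 0.0905 in those. The experiments also differed in delivery, in doxycycline, in the level of Prrx1 and in depth, and these cannot be told apart.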

How the results depend on the processing

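Of 1410 values of the 10 genes recomputed under an alternative, 1353 stayed on their side of the threshold. A further 28 lost and 27 gained a call, and 2 reversed, with a change of sign and a call. Of the 1410 values, 1289 had the sign of the main value. Apart from the 2 reversals, changes of sign came without a call in either fit. Both reversals were Cdk4 with Srebf2, which was −0.05 by counts and 0.22 (0.224402 and 0.224779) with limma on log2(TPM + 1) and log2(TPM + 0.1). The cause was not tested. Ccnd1 after induction was called under every alternative run. The part of depth in what passed was not tested.

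The number of genes called moved by over 1.5 times as follows, with the number of the 10 genes in brackets where it moved. After induction (844 genes, 3 of the 10) it was 1326 (4) with no filter, 155 (1) and 149 (1) with limma at pseudocounts 1 and 0.1, and 2705 (6) in the fit of all 30 libraries, which added Cdk4, Ccnd3 and Cdk2, and the count among the 10 was 4 with DESeq2, which added Cdk4, and 2 with total-count scaling and with protein-coding transcripts, which lost Ccne1. For transfected Prrx1 (391) it was 669 with DESeq2 and 615 with no filter. For Snai1 (212) it was 545 with DESeq2, 421 with no filter, and 358 and 351 with limma. For Egr1 (47) it was 205 (1) with DESeq2, 1227 (2) and 1276 (2) with limma and 101 with all 30 libraries. For Jun (140) it was 511 (1) with DESeq2, 244 at a minimum of 5 CPM, 2224 (1) and 2236 (1) with limma and 58 with all 30 libraries. For Srebf2 (2194, 1) it was 985 (2) and 982 (2) with limma and 569 (0) with all 30 libraries, and the count among the 10 was 2 with no filter, which added Ccnd1, and 2 with protein-coding transcripts, which added Cdk4 (−0.17, adjusted p = 0.0486, edgeR). For Snai1 against Prrx1 (33) it was 66 with no filter, 9 at 5 CPM, 7 and 5 with limma and 18 with all 30 libraries. For Jun against Egr1 (65) it was 227 with DESeq2, 10 and 7 with limma and 100 with all 30 libraries. For the difference of both Prrx1 effects (608, 2) it was 981 (3) with DESeq2, 236 (1) and 210 (1) with limma and 1900 (3) with all 30 libraries, where Cdk6 was added. With no filter Cdk6 took the place of Ccne1.

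With limma the median of all genes was 0.148 and 0.157 for Egr1 and 0.145 and 0.155 for Jun, and 98.5% and 97.8% of calls were higher at pseudocount 1, where edgeR had 61.7% and 46.4%. For Jun the higher share was 31.3% with total-count scaling and 58.2% at 5 CPM. The calls that limma made for Ccnd2 with Egr1 (0.52) and Jun (0.35) and for Cdkn1b with Egr1 (0.20) are on that shifted scale.

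Without each library in turn, the genes called (and those of the 10) ranged from 334 to 1250 (1 to 3) after induction, 103 to 2641 (0 to 2) for Prrx1, 46 to 3058 (0 to 2) for Snai1, 9 to 106 (0 to 1) for Egr1, 27 to 96 (0 to 0) for Jun, 968 to 2317 (1 to 1) for Srebf2, 11 to 20 (0 to 0) for Snai1 against Prrx1, 17 to 119 (0 to 0) for Jun against Egr1 and 301 to 1116 (1 to 3) for the difference of both Prrx1 effects. The highest values for Prrx1 and Snai1 were without control replicate 1.

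Replicate numbers did not pair the samples: deviations of same-numbered libraries correlated between −0.188 and 0.0969. With the number as a block, Egr1 had 20 genes called, Jun 73 and Jun against Egr1 34. Of the 10 genes, the block lost Ccne1 after induction (adjusted p = 0.0505, edgeR) and gained Cdk4 (0.0253).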
